A study of Mus musculus with 23 samples.

Results

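Fkbp5, Zbtb16 and 8 further genes that respond to glucocorticoids, or that set how strongly a cell senses them, were followed across 23 RNA libraries of mouse proximal small intestine. The members were chosen by symbol: Fkbp5, Zbtb16, Tsc22d3, Klf9, Sgk1, Dusp1, Mt1, Mt2, Nr3c1 and Hsd11b2. All 10 were found among the 16259 genes of the deposited table, and all 10 had a mean of at least 10 normalized reads. That mean was the minimum for testing, and 11939 genes met it. The members, and the gene lists set beside them, were chosen with earlier results of these data known. Counts over them are therefore a description.

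The mice were wild type (12 libraries) or Ddit4-/- (11 libraries), all labelled male. Its product, also called REDD1, restrains mTORC1 and is itself induced by glucocorticoids. Of the libraries, 9 came from animals with free access to food (ad libitum), 2 from animals after a 24 h fast, and 12 from animals given food again for 2, 6, 12 or 24 h after such a fast. Doxorubicin, a DNA-damaging chemotherapy drug, was injected intraperitoneally at 20 mg/kg in 15 of the 23 animals, 7 fed ad libitum and 8 fasted and refed, and the tissue was taken 2, 6, 12 or 24 h later. The 8 untreated libraries were ad libitum and fasted at 0 h and refed at 2 and 6 h, 1 of each genotype. The Ddit4-/- library fed ad libitum and taken 2 h after doxorubicin was not analysed here, so 11 of the 12 conditions held both genotypes. Each combination of genotype and condition was 1 library. The 2 genotypes of a condition therefore stood in for replicates, and a p-value here covers no more than the spread among these libraries, which may be technical. The labels give no age, strain, time of day or vehicle injection. Time after doxorubicin and time of day cannot be told apart.

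The libraries held 11.4 to 23.4 M reads in genes, and 1 read was worth 0.705 to 1.67 normalized reads. Ddit4 lay between 66.9 and 414 normalized reads in the wild-type libraries and between 0 and 11.3 in the Ddit4-/- libraries. Enterocyte markers were high in all 23 libraries, with all 8 detected. Pancreatic acinar transcripts stood apart in 2 libraries, Ddit4-/- fasted (a summed level of 65136 over 9 markers) and wild-type refed untreated 6 h (169628), against at most 2855 elsewhere. Y-linked reads were nearly absent (0 to 5) in 3 libraries despite the male label, namely Ddit4-/- ad libitum 0 h, Ddit4-/- fasted and Ddit4-/- refed untreated 2 h. The titles of 4 wild-type refed libraries call them untreated while their drug label is doxorubicin. The drug label was used. RNA came from whole tissue, so fewer cells of a type and less RNA per cell cannot be told apart.

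Glucocorticoids such as corticosterone enter cells and bind the glucocorticoid receptor, encoded by Nr3c1, which HSP90 and its co-chaperones hold ready in the cytoplasm. The bound receptor moves to the nucleus and acts on genes near glucocorticoid response elements, short palindromes. Corticosterone rises with fasting, stress and the active phase of the day. Its targets in many tissues include FKBP51 (Fkbp5), a co-chaperone that lowers the receptor's affinity for hormone and closes a feedback loop, the zinc finger repressor PLZF (Zbtb16), GILZ (Tsc22d3), which mediates anti-inflammatory effects, and KLF9, a transcription factor also tied to the clock. Further targets are the kinase SGK1, which promotes sodium transport in epithelia, the MAP kinase phosphatase DUSP1 and the zinc-binding metallothioneins. HSD11B2 inactivates corticosterone in sodium-absorbing epithelia.

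The sequence just before the start differs in its letters between members. RefSeq promoter sequences (GRCm38.p6) were found for 7 of the 10 members, and the 250 bases before each start were searched on both strands. Fkbp5, on chromosome 17 (28399094 to 28517527, minus strand, GENCODE annotation of mm10), is shown for the wide range of its level, Sgk1 for its palindrome, and the metallothioneins, neighbours on chromosome 8, for their metal elements. In the Sgk1 window (plus strand, chr10:21993640-21993889, inside the Sgk1 gene span but in none of its exons) the capitals mark the full palindrome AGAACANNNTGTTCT, 189 bases before the start. In the Fkbp5 window (minus strand, chr17:28486150-28486399) they mark an E box, CACGTG, the letters bound by clock factors. This window too lies inside the span of its gene, Fkbp5, but in none of its exons. In Mt1 (plus strand, chr8:94178839-94179088) the capitals mark the looser palindrome GNACANNNTGTNC and 1 metal element, and in Mt2 (plus strand, chr8:94172368-94172617) 3 metal elements, written TGCACNC or TGCGCNC. Of the Mt1 window, 7 bases lie in Mt1 exons.
Sgk1: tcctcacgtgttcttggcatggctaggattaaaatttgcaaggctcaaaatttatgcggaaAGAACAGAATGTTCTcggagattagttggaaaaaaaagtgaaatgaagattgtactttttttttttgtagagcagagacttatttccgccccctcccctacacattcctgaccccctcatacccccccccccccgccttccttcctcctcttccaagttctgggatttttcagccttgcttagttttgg
Fkbp5: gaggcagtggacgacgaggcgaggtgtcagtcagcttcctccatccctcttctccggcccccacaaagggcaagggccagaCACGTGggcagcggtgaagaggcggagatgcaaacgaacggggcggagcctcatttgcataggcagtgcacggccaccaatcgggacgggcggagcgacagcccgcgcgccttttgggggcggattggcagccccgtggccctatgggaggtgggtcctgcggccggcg
Mt1: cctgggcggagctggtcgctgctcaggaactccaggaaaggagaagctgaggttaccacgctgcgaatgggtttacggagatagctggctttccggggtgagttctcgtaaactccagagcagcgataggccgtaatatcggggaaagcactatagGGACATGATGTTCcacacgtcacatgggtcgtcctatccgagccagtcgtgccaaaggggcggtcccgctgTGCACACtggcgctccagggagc
Mt2: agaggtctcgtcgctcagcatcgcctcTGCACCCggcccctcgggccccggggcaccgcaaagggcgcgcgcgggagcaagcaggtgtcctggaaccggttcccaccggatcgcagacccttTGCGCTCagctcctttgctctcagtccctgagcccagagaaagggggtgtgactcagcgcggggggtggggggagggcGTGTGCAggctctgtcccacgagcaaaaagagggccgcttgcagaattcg

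The full palindrome was in 3 of 32851 windows (0.00913%), 1 of them among the 6 Sgk1 starts. The looser palindrome, which every full palindrome also matches, was in 0.387% of windows. At least 1 metal element, as in Mt1, was found in 21.4% of windows, and at least 3, as in Mt2, in 1.26%. The E box, also present at Dusp1 and at the printed Sgk1 start, was in 6.02%. One arm of the palindrome, AGAACA, was in 16.1% of windows and in none of those of Fkbp5, Klf9, Dusp1, Mt1 or Mt2. A match is a string of letters and not a measured binding site, and no match says only that the letters are not in this window.

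Fkbp5 was low in both ad libitum untreated libraries, at 117 normalized reads in the wild type and 94.8 in Ddit4-/-. After a 24 h fast it stood at 2200.0 and 2607, and after 2 h of refeeding at 2050.1 and 3107. At 6 h of refeeding it was back at 149 and 275. The untreated libraries thus fell into a low group, ad libitum and 6 h refed, and a high group, fasted and 2 h refed, with no overlap. How many of all genes split in this way was not counted.

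After doxorubicin in ad libitum mice the wild-type Fkbp5 values were 3353 at 2 h, 5247 at 6 h, 5200.2 at 12 h and 4892 at 24 h, and the Ddit4-/- values 315 at 6 h, 4132 at 12 h and 4018 at 24 h. In fasted and refed mice the wild-type values were 4479, 564, 8374 and 3452 at 2, 6, 12 and 24 h. Those of Ddit4-/- were 5739, 1208, 1359.7 and 3617. Every doxorubicin library lay above both ad libitum untreated ones. The lowest 3 of the 15 were all taken at 6 h, and the wild-type ad libitum 6 h library was the exception at that time.

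Zbtb16 (chromosome 9, 48654297 to 48836222, minus strand) had no read in either ad libitum untreated library. It had 53.3 (wild type) and 15.9 (Ddit4-/-) normalized reads in the fasted libraries, 41.6 and 37.6 after 2 h of refeeding, and 11.7 and 0 after 6 h. With doxorubicin and ad libitum feeding the wild type had 130.3, 214, 465 and 327 at 2, 6, 12 and 24 h. The Ddit4-/- libraries had 0.814 (1 read), 179 and 382 at 6, 12 and 24 h. With doxorubicin after fasting and refeeding the wild type had 531, 9.75, 921 and 441 and Ddit4-/- 237, 41.7, 48.3 and 155 at 2, 6, 12 and 24 h. Zbtb16 was thus low wherever Fkbp5 was low, and its single read in the Ddit4-/- ad libitum 6 h library sat beside the lowest Fkbp5 value after doxorubicin.

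Because both ad libitum untreated libraries were at 0, a fold for Zbtb16 is a lower bound, set against 3 reads per library. By that measure its mean was at least 10.9-fold higher in fasted libraries, and with doxorubicin and ad libitum feeding at least 101-fold higher at 12 h and 111-fold at 24 h. At 6 h the mean gave at least 33.8-fold, carried by the wild-type library alone, since the Ddit4-/- library lay below the floor. Intervals and floors of this kind cover counting error only.

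**Figure D1:**
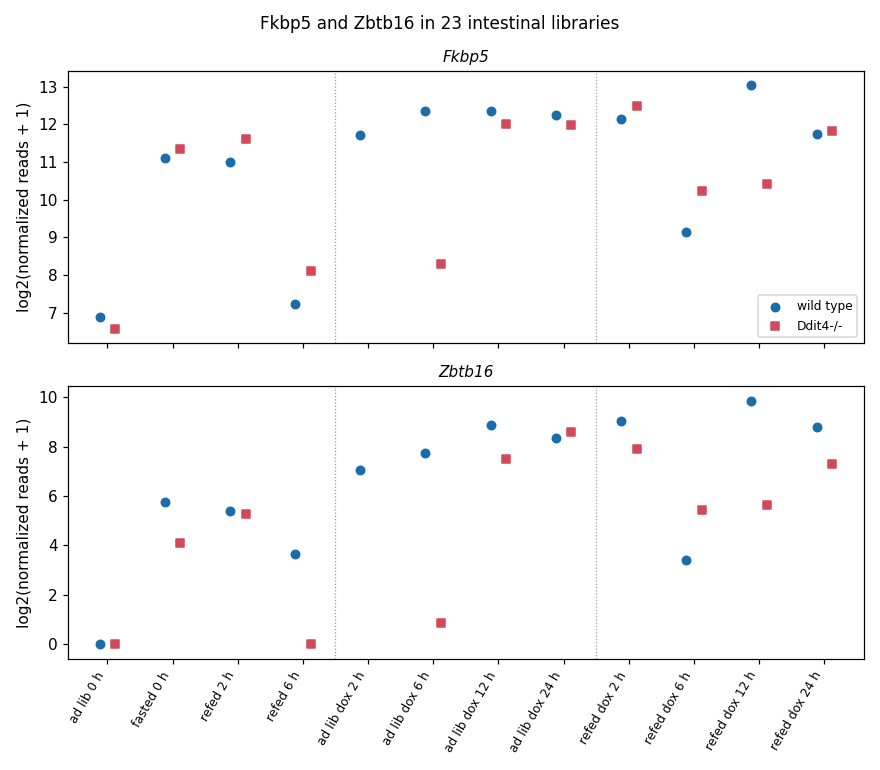
Level of Fkbp5 (top) and Zbtb16 (bottom) as log2(normalized reads + 1) in each of the 23 libraries, by condition; circles are wild type and squares Ddit4-/-, 1 library each, with dotted lines between untreated, doxorubicin ad libitum and doxorubicin refed. Both genes are lowest in ad libitum untreated libraries, with Zbtb16 also at 0 in the Ddit4-/- refed untreated 6 h library, and dip in most 6 h libraries.

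The shared course of the pair was summarised over all 23 libraries. Among 9386 genes with a mean of at least 50, Zbtb16 was the gene whose log2 level followed Fkbp5 most closely (Pearson r 0.92, Spearman rho 0.91), and Fkbp5 the one closest to Zbtb16. The r was 0.85 over the 8 untreated libraries and 0.96 over the 15 doxorubicin libraries. Next to Fkbp5 came Serinc3 (r 0.919, against 0.921 for Zbtb16), Inpp5b (0.87), N4bp2l1 (0.85), Apbb3 (0.85) and Fut4 (0.84). Over the 8 untreated libraries Apbb3 (0.93), Serinc3 (0.92) and N4bp2l1 (0.88) followed Fkbp5 more closely than Zbtb16 did. Over the 15 doxorubicin libraries they were at 0.80, 0.85 and 0.73. Next to Zbtb16 came Tmem37 (0.87), N4bp2l1 (0.86), Inpp5b (0.85), Apbb3 (0.84) and Fut4 (0.83). Ranked by Spearman rho, 3 of the 6 genes closest to Fkbp5 and 4 of the 6 closest to Zbtb16 were among these. These libraries share feeding and drug groups, so the correlations are a description. Of the other members, Tsc22d3 (r 0.63), Sgk1 (0.61) and Mt1 (0.59) followed Fkbp5 in part. For Klf9 r was 0.01 over all libraries, but -0.75 over the 8 untreated and 0.15 over the 15 doxorubicin libraries, and for Dusp1 it was 0.08, -0.67 and 0.05. Nr3c1, the receptor gene, ran opposite in both (r -0.65 over all, -0.84 and -0.60).

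**Figure D2:**
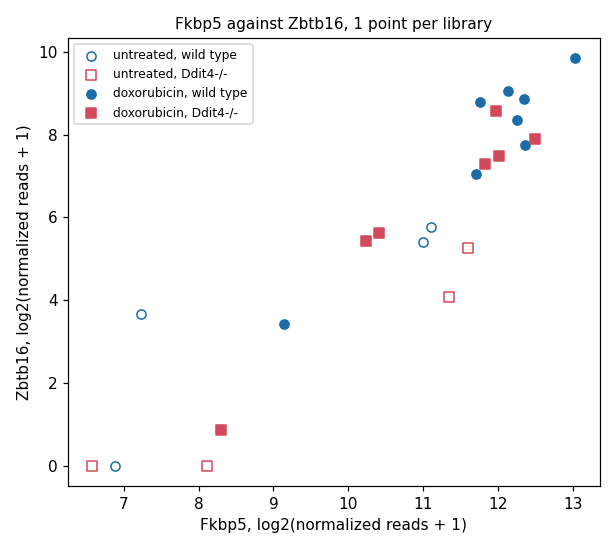
Zbtb16 against Fkbp5, both as log2(normalized reads + 1), 1 point per library (open, untreated; filled, doxorubicin; circles, wild type; squares, Ddit4-/-). The 23 libraries lie along 1 band (Pearson r 0.92), with ad libitum untreated libraries at its lower end.

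Tsc22d3 was present throughout, between 1045 and 4349.7 normalized reads. It stood at 1647 (wild type) and 1672 (Ddit4-/-) in ad libitum untreated libraries, at 3537 and 2986 in fasted ones, at 2119 and 1899 after 2 h of refeeding and at 1441 and 1045 after 6 h. Its doxorubicin ad libitum values were highest at 12 h, 4349.7 and 3868. The fasted pair lay above the other 6 untreated libraries. The share of all genes that did so was not counted.

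Klf9 ranged from 243 to 1002. Among untreated libraries its fasted (321 and 486) and 2 h refed values (465 and 340) all lay below its ad libitum (535 and 545) and 6 h refed values (517 and 552), the reverse of Fkbp5. For this split too the share of all genes was not counted. Its lowest value was the Ddit4-/- ad libitum 24 h doxorubicin library and its highest the wild-type refed 2 h doxorubicin library.

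Sgk1 stood at 5846 and 6395 in the ad libitum untreated libraries, 16978.5 and 22612 in the fasted ones, 3645 and 5153 after 2 h of refeeding and 2006 and 2540.2 after 6 h (wild type, then Ddit4-/-). At 2 h of refeeding it was thus below the ad libitum level, while Fkbp5 was still high. With doxorubicin and ad libitum feeding the wild type had 14451, 13968, 22596.5 and 19905 at 2, 6, 12 and 24 h, and Ddit4-/- 8916, 11111 and 6434 at 6, 12 and 24 h. All 7 lay above the ad libitum untreated pair, the last by a small margin.

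Dusp1 ranged from 76.9 to 442 normalized reads, with its 2 highest values, 442 and 436, in the refed 12 h doxorubicin libraries. The Dusp1 gene model overlaps Ergic1 on the other strand. The libraries do not keep strand, so reads from the 2 genes may be mixed.

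Mt1 (chromosome 8, 94179082 to 94180327, plus strand) had 782 and 616 normalized reads in the 2 untreated ad libitum libraries, 7391 and 1909.6 when fasted, 2262 and 1532 after 2 h of refeeding, and 529.9 and 1187 after 6 h. Its highest value in the study was 18715.5, in the Ddit4-/- ad libitum library 24 h after doxorubicin. Mt2 (chromosome 8, 94172664 to 94173568, plus strand) was sparse, at 0 to 51.5 normalized reads, and also peaked in that library. An antisense gene, Gm45774, covers 432 of the 588 exonic bases of Mt2 (73.5%), and it is not in the table. In unstranded libraries reads there can be left unassigned, so the level of Mt2 is uncertain. No 31-base word of the Mt2 transcripts occurs in those of Mt1.

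Nr3c1 stayed between 1324 and 2571, an SD of 0.27 on the log2 scale and at the 23.2nd percentile of all genes tested, whose median SD was 0.41. Fkbp5 (SD 1.97) and Zbtb16 (3.11) were at the 99.2nd and 99.9th percentiles. Hsd11b2 was sparse, from 0 to 129 normalized reads, with 129 in the wild type and 80.7 in Ddit4-/- after 2 h of refeeding without drug. At the same time with doxorubicin it stood at 29.2 and 103.

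**Figure D3:**
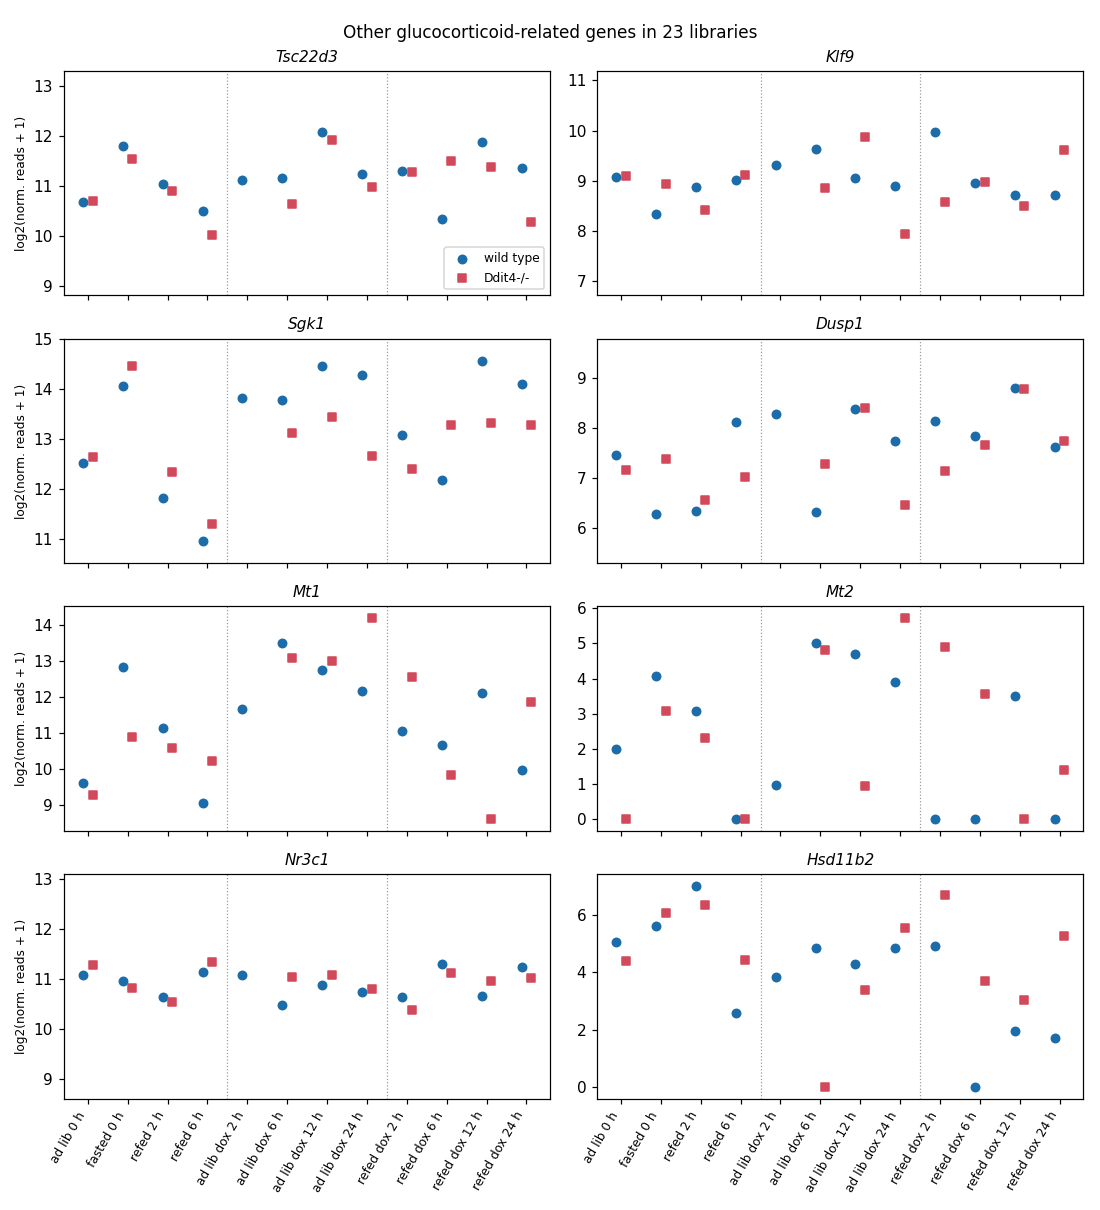
Levels of the other 8 members as log2(normalized reads + 1) in each library; symbols and dotted lines as for Fkbp5 and Zbtb16, and each panel has its own vertical range of at least 4 log2 units. Among untreated libraries Sgk1 is highest in the fasted and lowest in the 6 h refed ones, while Nr3c1 stays within 1324 to 2571 normalized reads.

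The first comparison asked what a 24 h fast does, 2 fasted against 2 ad libitum untreated libraries. Fkbp5 rose by a log2 difference of 4.49 ± 0.88 (SE; limma adjusted p 0.036), a 22.5-fold change, and was the only member called. Over all genes 0.343% were called in that comparison. Zbtb16 differed by 4.92 ± 1.40 (adjusted p 0.23), Sgk1 by 1.68 ± 0.49 (0.26), Tsc22d3 by 0.97 ± 0.33 (0.40) and Mt1 by 2.43 ± 0.95 (0.54). Each was higher in both fasted libraries than in either ad libitum one, as were Mt2 and Hsd11b2. The share of all genes that separated in this way was not counted. DESeq2 called Fkbp5 and Zbtb16 (adjusted p 0.00066 and 0.044) and 1.24% of all genes. Klf9 (-0.45 ± 0.44), Dusp1 (-0.48 ± 0.47) and Nr3c1 (-0.29 ± 0.19) were lower when fasted and did not pass the test. Of 20 tested other glucocorticoid-responsive genes, 6 had an unadjusted p under 0.05, as did 843 of all 11939 genes. None of the 20 had a limma adjusted p under 0.05, and their median log2 difference was 0.57 against 0.00 over all genes.

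The Fkbp5 call after fasting sat close to the threshold. edgeR gave an adjusted p of 0.077 and the limma fit without a minimum on the mean 0.067. Leaving out either ad libitum library gave 0.23 (wild type) and 0.36 (Ddit4-/-), and leaving out either fasted library 0.19 (wild type) and 0.33 (Ddit4-/-). Leaving out 1 of 6 libraries outside the comparison, the 2 refed untreated 2 h ones and the 4 ad libitum doxorubicin ones of 12 and 24 h, gave 0.053 to 0.057. The Ddit4-/- fasted library also carried the pancreatic transcripts. Without it and the other such library the Fkbp5 difference was 4.07 (0.28), and it was 4.22 (0.85) when the 3 libraries lacking Y-linked reads were left out. The log2 difference stayed between 4.07 and 4.85 in all of these.

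Refeeding was compared with the fast at 2 h and at 6 h. At 2 h limma called 0 members and 0.251% of all genes. The unadjusted p was under 0.05 for 2 members and for 1035 of all 11939 genes. Fkbp5 (0.08 ± 0.88) and Zbtb16 (0.42 ± 1.40) differed from the fasted level by less than their error. Sgk1 differed by -2.18 ± 0.49 (adjusted p 0.094), which DESeq2 called (0.021) among 1.22% of all genes, and edgeR called 0 members. The receptor's chaperones moved instead: of 15 tested genes for the receptor, chaperones and local steroid handling, 4 rose. Hsp90aa1, the stress-inducible HSP90 that holds the receptor, rose by 1.84 ± 0.21 (adjusted p 0.0008), Hsp90ab1, its constitutive form, by 1.54 ± 0.25 (0.017) and Stip1, which links HSP70 to HSP90, by 1.37 ± 0.24 (0.026). Hsp90aa1 stood at 1202 and 1423 normalized reads when fasted and at 5774 and 3810.2 after 2 h of refeeding. Among other glucocorticoid-responsive genes Pdk4, which restrains glucose oxidation, fell by 3.53 ± 0.68 (0.043). Over these 2 h the summed fat marker level went from 2324 to 3414 in fasted libraries to 5386 to 7985, with all 7 markers detected, and its part in these results was not tested.

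At 6 h of refeeding 3 members had fallen from the fasted level, beside 7.02% of all genes. Sgk1 fell by 3.12 ± 0.49 (limma adjusted p 0.006), Fkbp5 by 3.56 ± 0.88 (0.026) and Tsc22d3 by 1.40 ± 0.33 (0.022). Zbtb16 differed by -3.09 ± 1.40 (0.18) and Mt1 by -2.24 ± 0.95 (0.16). Of 20 other glucocorticoid-responsive genes 4 fell, with a list median of -0.96 against -0.05 over all genes. They included Pdk4 (-4.00 ± 0.68, adjusted p 0.0064), Klf15, a factor of amino acid catabolism (-3.28 ± 0.64, 0.011), and Per1, a clock repressor that glucocorticoids induce (-1.79 ± 0.38, 0.014). Per2, its paralogue, rose by 1.67 ± 0.34 (0.013).

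The 6 h refeeding calls leaned on the fasted libraries. Without the Ddit4-/- fasted library 0 members were called (Sgk1 -2.71, adjusted p 0.11; Fkbp5 -3.21, 0.24; Tsc22d3 -1.43, 0.18), and without the wild-type fasted library Sgk1 alone was. Fkbp5 missed the threshold without the wild-type 6 h library (-2.86, 0.12) and Tsc22d3 without the Ddit4-/- one (-1.26, 0.089). Without the 2 libraries with pancreatic transcripts the differences were -2.39 for Fkbp5 (0.39), -2.26 for Sgk1 (0.15) and -1.59 for Tsc22d3 (0.15), and without the 3 libraries lacking Y-linked reads -3.13, -2.62 and -1.41 (0.35, 0.19 and 0.29). Against ad libitum feeding the 6 h refed libraries gave 0 called members by limma, edgeR and DESeq2, beside 3.68% of all genes by limma. There 1 member had an unadjusted p under 0.05, as did 2712 of all 11939 genes. Sgk1 was lower there by 1.44 ± 0.49 on the log2 scale (adjusted p 0.10).

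The next comparisons asked how the members stood after doxorubicin in mice fed ad libitum, against the same ad libitum untreated pair. They share that pair with the fasting comparison. At 2 h, with 1 library, limma called 0 members and 0.0670% of all genes. Of all 11939 genes, 1448 had an unadjusted p under 0.05. Fkbp5 differed by 4.78 ± 1.09 (adjusted p 0.10) and Zbtb16 by 6.20 ± 1.75 (0.16), the 2 members with an unadjusted p under 0.05, and DESeq2 called both (0.012 and 0.031) among 1.57% of genes. Fkbp5 also passed without either 6 h ad libitum library (0.0096 without each).

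At 6 h limma again called 0 members, beside 1.34% of all genes. Beside 1763 of all 11939 genes, 4 members had an unadjusted p under 0.05. Fkbp5 differed by 3.60 ± 0.88 (adjusted p 0.054), Mt1 by 3.86 ± 0.95 (0.056) and Zbtb16 by 4.31 ± 1.40 (0.15). The other was Nr3c1, lower by 0.41 ± 0.19 on the log2 scale (0.33). DESeq2 called Fkbp5, Mt1 and Zbtb16, with 4.19% of genes, and edgeR Fkbp5 alone (0.036). The genotypes were far apart at 6 h: without the Ddit4-/- library, Fkbp5 differed by 5.61 (0.0037) and Zbtb16 by 7.17 (0.041), and without the wild-type one they were 1.59 and 1.44. Mt1, at 11729.5 in the wild type and 8658 in Ddit4-/-, did not show this split.

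At 12 h 4 members rose, beside 9.00% of all genes. Fkbp5 rose by 5.45 ± 0.88 (limma adjusted p 0.0020), Zbtb16 by 8.18 ± 1.40 (0.0030), Mt1 by 3.44 ± 0.95 (0.034) and Tsc22d3 by 1.31 ± 0.33 (0.022). Sgk1 differed by 1.37 ± 0.49 (0.093) and Dusp1 by 1.08 ± 0.47 (0.17). Fkbp5 and Zbtb16 passed in every alternative run and with each of the 23 libraries left out. The size of the Zbtb16 difference, from libraries with no read, rests on the pseudocount and ran from 5.88 to 11.4 over these alternatives. Mt1 (0.054 with no minimum on the mean) and Tsc22d3 (0.052 after quantile normalization) missed the threshold without any 1 of the 4 libraries of the comparison (adjusted p 0.12 to 0.20 for Mt1 and 0.097 to 0.14 for Tsc22d3) and without the 3 libraries lacking Y-linked reads (0.24 and 0.16).

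At 24 h 3 members had risen, beside 3.11% of all genes: Fkbp5 by 5.38 ± 0.88 (limma adjusted p 0.0046), Zbtb16 by 8.47 ± 1.40 (0.0049) and Mt1 by 3.73 ± 0.95 (0.042). Tsc22d3 (0.41 ± 0.33) and Klf9 (-0.66 ± 0.44) did not pass. Without the Ddit4-/- 24 h library 0 members passed (Fkbp5 5.32, 0.076; Zbtb16 7.42, 0.12; Mt1 2.58, 0.44), and without the Ddit4-/- ad libitum untreated library Zbtb16 alone did (Fkbp5 0.057). Without the wild-type untreated one Fkbp5 alone did (Zbtb16 0.053), and without the 3 libraries lacking Y-linked reads 0 members did (0.095 and 0.071 for the pair). Mt1 also missed the threshold with no minimum on the mean (0.063) and, at 0.055 to 0.059, without any 1 of 6 libraries outside the comparison, the refed untreated 2 h and the ad libitum doxorubicin 6 and 12 h ones. Between 24 and 6 h after doxorubicin limma called 0 members and 0% of genes, as did edgeR, and DESeq2 0 members. Zbtb16 differed there by 4.16 ± 1.40 (adjusted p 0.55), the single member with an unadjusted p under 0.05, beside 850 of all 11939 genes.

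Separation from the ad libitum pair was also counted directly. In all 7 doxorubicin ad libitum libraries Fkbp5, Zbtb16, Sgk1 and Mt1 lay above both untreated ones, as 11.5% of all genes did. In all 15 doxorubicin libraries Fkbp5 and Zbtb16 did so, against 5.42% of genes, Zbtb16 in 1 of them by a single read.

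**Figure D4:**
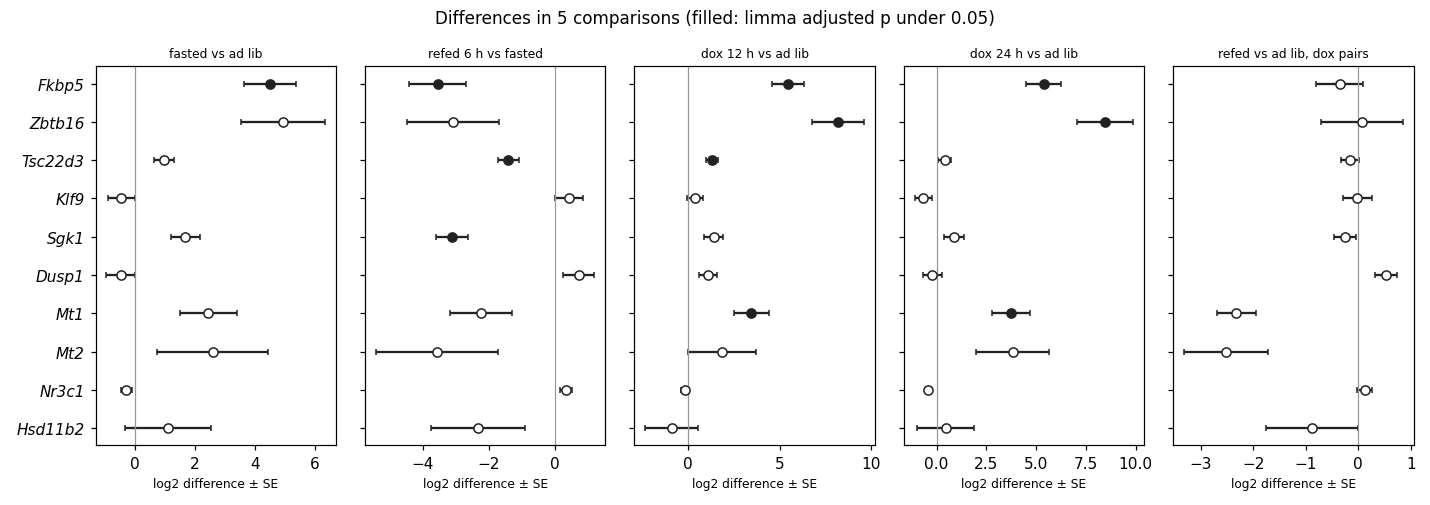
Log2 difference ± SE of the 10 members in 5 comparisons (limma; filled points have an adjusted p under 0.05; each panel has its own horizontal scale). Fkbp5 is filled in the first 4 panels, Zbtb16 in both doxorubicin panels against ad libitum untreated, and no point in the panel of the doxorubicin pairs.

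Other genes shifted at these times too. Of 10 clock genes that peak with Nr1d1 and Dbp, 8 rose at 6 h and 8 at 12 h, and 5 at 24 h, where 1.34%, 9.00% and 3.11% of all genes were called in either direction. Per1 rose by 1.74 ± 0.38, 1.92 ± 0.38 and 1.61 ± 0.38 (limma adjusted p 0.032, 0.0066 and 0.030), Per2 by 3.53 ± 0.34, 4.46 ± 0.34 and 2.69 ± 0.34 and Dbp by 6.56 ± 1.09, 4.85 ± 1.09 and 4.28 ± 1.09. Arntl, of the opposite phase, fell by 2.72 ± 0.44 at 6 h and by 1.64 ± 0.44 at 12 h (adjusted p 0.0093 and 0.030). Per1 belongs to the clock genes and the glucocorticoid-responsive genes alike. No library of another time of day without drug went with the 12 and 24 h libraries, so the drug, the time of day and the hormone cannot be told apart there. At 6 h the undrugged libraries were fasted and refed. In the wild type and Ddit4-/-, Dbp stood there at 888 and 279, against 51.6 and 5.64 in the ad libitum untreated pair. Per2 stood at 328 and 331 against 36.7 and 44.0. Arntl was lower, at 221 and 375 against 715 and 846. Per1 was lower too, at 129 and 140 against 206 and 216. The part of time in the 6 h differences was not tested.

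Of 20 other glucocorticoid-responsive genes 2 rose at 6 h, 4 at 12 h and 3 at 24 h, beside 108, 571 and 207 of all 11939 genes. None fell by the limma test, and at 12 h 503 of all genes did. Their medians were 0.26, 0.21 and 0.91, against -0.00, -0.01 and 0.02 over all genes. The 4 at 12 h were Per1, the clock-linked deubiquitinase gene Usp2 (1.77 ± 0.42, adjusted p 0.017), Cdkn1a, which encodes the cell cycle inhibitor p21 and is also a p53 target (0.78 ± 0.19, 0.017), and the repressor gene Bcl6 (1.30 ± 0.34, 0.027). Of 15 genes for the receptor, chaperones and steroid handling 2 rose and 4 fell at 12 h. The drug efflux pump gene Abcb1a rose by 2.23 ± 0.47 (0.0092). Chaperones fell at 12 h, Hsp90aa1 by 0.98 ± 0.21 (0.0095), Hsp90ab1 by 1.24 ± 0.25 (0.0083) and Fkbp4 by 1.19 ± 0.22 (0.0043). Fkbp4 encodes FKBP52, another co-chaperone of HSP90. Of 8 zinc and MTF1 genes 2 rose at 12 h, the zinc importer Slc39a14 (1.11 ± 0.24, 0.0097) and Gclc, of glutathione synthesis (2.09 ± 0.44, 0.0090). The zinc exporter gene Slc30a1, of the same list, differed by 0.04 ± 0.31 at 12 h and -0.44 ± 0.31 at 24 h. The part of zinc or MTF1 in the Mt1 level was not tested.

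Marker RNA of other cell types differed between the same groups. The summed fat marker level was 2530 to 2906 in the ad libitum untreated libraries, where Plin1 and Lep were at 0, and 4158 to 8353 in the 7 doxorubicin ad libitum ones. The smooth muscle sum was 684 to 2654 in the untreated pair and 176 to 443 at 12 h, where 4 of 5 tested markers fell. Paneth markers summed to 21128 to 26742 in the pair and to 4125 to 7721 at 12 h, where 2 of 6 fell. Their part in the members' differences was not tested.

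Doxorubicin was compared directly with no drug in refed mice at 2 and 6 h, the 2 times with libraries of both kinds and both genotypes. At 2 h 0 members were called by limma, edgeR or DESeq2, beside 0.0335% of all genes by limma. Beside 1358 of all 11939 genes, 2 members had an unadjusted p under 0.05. Those were Zbtb16 (3.13 ± 1.40, limma adjusted p 0.41), at 531 and 237 with the drug against 41.6 and 37.6 without, and Dusp1 (1.18 ± 0.47, 0.35), at 279 and 139 against 80.5 and 93.5. The groups did not overlap for either gene, but the share of all genes without overlap was not counted. Fkbp5 differed by 1.01 ± 0.88. Hsp90aa1, raised by refeeding, was lower with the drug by 1.28 ± 0.21 on the log2 scale (adjusted p 0.039). At 6 h limma called 0% of genes and, like edgeR and DESeq2, 0 members. Sgk1 differed by 1.59 ± 0.49 (adjusted p 0.21), at 4657 and 9957 against 2006 and 2540.2, and Fkbp5 by 2.02 ± 0.88 (0.37), at 564 and 1208 against 149 and 275. Both drug libraries lay above both untreated ones for each of these 2 genes. Here too the share of all genes that did so was not counted. The wild-type doxorubicin libraries here carry the conflicting titles. If those titles held, both sides of the wild-type comparison would be untreated.

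Within the refed doxorubicin libraries, late times (12 and 24 h) were compared with early ones (2 and 6 h). limma called 0 members and 0.0921% of all genes, and edgeR and DESeq2 called 0 members. Sgk1 was higher late by 1.08 ± 0.35 (adjusted p 0.27), the 1 member with an unadjusted p under 0.05, beside 1302 of all 11939 genes. Hsp90aa1 fell by 1.07 ± 0.15 (0.0068).

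Fasting and refeeding before the drug were compared with ad libitum feeding in 14 doxorubicin libraries, which form 7 pairs matched on genotype and time. All wild-type refed libraries in these pairs carry the conflicting titles. If those titles held, the wild-type pairs would differ in drug as well as feeding. limma called 0% of genes and 0 members, and 3 members, Mt1, Mt2 and Dusp1, had an unadjusted p under 0.05, as did 769 of 11908 genes. The metallothioneins were lower in the refed animal in 7 of 7 pairs, as 1.08% of genes were. Mt1 differed by -2.32 ± 0.37 (adjusted p 0.21) and Mt2 by -2.51 ± 0.80 (0.75). DESeq2 called both (0.0030 and 0.041) and 0.176% of genes, while edgeR called 0 genes. For Mt1 the ad libitum to refed ratio was 1.52, 7.17, 1.57 and 4.56 in the wild type at 2, 6, 12 and 24 h, and 9.49, 21.2 and 5.06 in Ddit4-/- at 6, 12 and 24 h. The widest gap was in Ddit4-/- at 12 h, 8236 normalized reads ad libitum and 389 refed. For Mt2, 2 of the 7 pairs compared 1 read with 0.

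Fkbp5 and Zbtb16 had no common direction in the pairs. Fkbp5 was lower in the refed animal in 4 of 7 (-0.35 ± 0.45) and Zbtb16 in 3 of 7 (0.07 ± 0.77). Their largest gaps were both at 6 h and ran in opposite directions in the genotypes. In the wild type Fkbp5 was at 5247 ad libitum and 564 refed, and in Ddit4-/- at 315 and 1208. Whether the refed to ad libitum difference changed between late and early times, or between genotypes, was also tested. Each tool called 0 members, and limma 0% of genes. The unadjusted p was under 0.05 for 1 and 2 members, beside 669 and 227 of 11908 genes. The genotype difference in Mt1 was -1.76 ± 0.58 (adjusted p 1.0) and that in Sgk1 0.82 ± 0.37 (1.0).

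**Figure D5:**
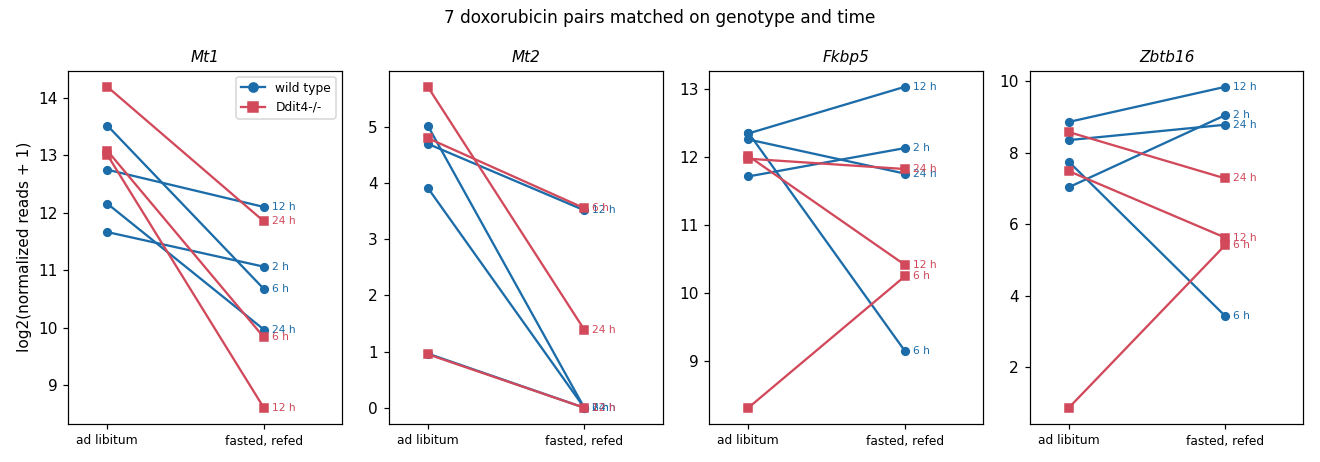
Log2(normalized reads + 1) of Mt1, Mt2, Fkbp5 and Zbtb16 in 7 doxorubicin pairs, each line joining the ad libitum and the fasted and refed library of 1 genotype and time (labelled in h). Mt1 and Mt2 are lower in the refed library in 7 of 7 pairs, while lines of Fkbp5 and Zbtb16 run in both directions. The wild-type refed libraries carry the conflicting titles.

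Loss of Ddit4 was tested over all conditions. limma called 0 members and 0.578% of all genes, edgeR and DESeq2 0 members. Zbtb16 was lower in Ddit4-/- by 1.68 ± 0.60 on the log2 scale (unadjusted p 0.013, adjusted p 0.25), and was lower in 8 of 11 pairs of the same condition. It was the 1 member with an unadjusted p under 0.05, beside 1430 of all 11939 genes. In the ad libitum untreated pair it was 0 in both. Its widest gaps were at ad libitum doxorubicin 6 h (0.814 against 214) and refed doxorubicin 12 h (48.3 against 921). Tsc22d3 was lower in 9 of 11 pairs (-0.20 ± 0.14, adjusted p 0.62). How many of all genes reach such counts of pairs was not determined. Of the other glucocorticoid-responsive genes the single call was Ddit4 itself, the deleted gene.

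Whether the knockout difference changed with the drug was tested as an interaction, in which limma and edgeR called 0 genes and no tool called a member. Sgk1 had the 1 unadjusted p under 0.05 among the members (-1.05 ± 0.36, p 0.011, limma adjusted p 0.98), beside 497 of all 11939 genes. It was higher in Ddit4-/- in 4 of 4 untreated pairs, by 0.13 to 0.50 on the log2 scale, and lower in 6 of 7 doxorubicin pairs. The exception was refed 6 h, with 9957 in Ddit4-/- and 4657 in the wild type. The 3 Ddit4-/- libraries lacking Y-linked reads are among the 4 untreated ones and none is among the 7 with doxorubicin, so this contrast runs with that difference between libraries, and its part was not tested. The share of all genes with the same counts of pairs was not determined.

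Of the 5 genes next closest to Fkbp5 after Zbtb16, 1 passed the limma test with fasting, 3 at 6 h of refeeding and 5 at 12 h after doxorubicin. Over all genes 0.343%, 7.02% and 9.00% were called in these comparisons. Fut4, a fucosyltransferase gene, rose with fasting by 1.77 ± 0.34 (limma adjusted p 0.034), fell at 6 h of refeeding by 2.26 ± 0.34 (0.0058) and rose 12 h after doxorubicin by 1.97 ± 0.34 (0.0030). Its level was 527 and 549 in the ad libitum untreated libraries and 926 to 2635 in the 7 doxorubicin ad libitum ones. Serinc3 rose by 0.97 ± 0.22 at 12 h (0.013) and N4bp2l1 by 1.67 ± 0.36 (0.010), and both fell at 6 h of refeeding (-0.80 ± 0.22, 0.039, and -1.44 ± 0.36, 0.028). Apbb3 rose by 2.18 ± 0.33 at 12 h (0.0012), from 62.1 and 74.4 normalized reads untreated to 196 to 338 over the 7 doxorubicin ad libitum libraries. Inpp5b, a phosphoinositide phosphatase gene, rose by 1.11 ± 0.25 at 12 h (0.013). It did not pass with fasting (0.55 ± 0.25, 0.66) or at 6 h of refeeding (-0.63 ± 0.25, 0.13), nor did Apbb3 (0.99 ± 0.33, 0.38, and -0.47 ± 0.33, 0.39). These genes were picked for following Fkbp5 over the same libraries, so their directions and the tests they passed are a description.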

How the data were processed

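Total RNA of whole proximal small intestine was made into non-directional poly-A libraries and read as paired ends, as the labels describe. Trim Galore, STAR and DESeq2 are the tools, and mm10 the build, named by the submitters' processing notes; gene counting and annotation are not given in the sources used here. The deposited table holds signal values, normalized reads made by the authors with 1 factor per library; 100% of them were whole reads within 0.01 of a read after division by that factor's step (largest deviation 6.89e-05).

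All tests used log2(value + 1), kept the 11939 genes whose mean reached 10, and were two-sided. They were run in limma 3.58.1 under R 4.3.3, with eBayes and a mean-variance trend: 12 conditions plus genotype over 23 libraries (10 residual degrees of freedom), and 7 pairs (6 degrees of freedom; 11908 genes) for refeeding with doxorubicin. Adjustment was Benjamini-Hochberg over all genes, with a threshold of 0.05. edgeR 4.0.16 and DESeq2 1.42.0 were run on recovered reads. Scripts were tested on simulated data. The members and lists were chosen with earlier results of these data known. Named genes were the members, up to 3 called genes with the smallest p per list and comparison, a set of clock, chaperone and zinc genes, and the 6 genes closest to Fkbp5 and to Zbtb16. Alternatives covered the pseudocount (0.5, 5), the minimum mean (none, 50), quantile normalization, edgeR, DESeq2, subsets of libraries and each library left out.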

Additional observations from a re-analysis of the deposited data

How the results depend on the processing

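Over 639 alternative values of 20 results on single members, 557 kept their direction and side of the threshold, 56 lost the call, 26 gained one and 0 reversed. Counts of called members moved as follows. For fasting, 1 member became 0 with no filter on the mean, with edgeR, without the libraries lacking Y-linked reads and without those with pancreatic transcripts, and 2 with DESeq2 and without the 4 libraries of conflicting title; leaving out 1 library gave 0 to 1. For refeeding at 2 h DESeq2 gave 1. For refeeding at 6 h against fasting, 3 became 0 without the libraries lacking Y-linked reads and 0 without those with pancreatic transcripts, and 4, with Mt1, without conflicting titles (0 to 3 with 1 library left out). For doxorubicin ad libitum, 0 members at 2 h became 2 with DESeq2 (0 to 1 with 1 left out), and 0 at 6 h became 2 with quantile normalization, 1 with edgeR, 3 with DESeq2 and 2 without conflicting titles (0 to 2). At 12 h, 4 became 2 without the libraries lacking Y-linked reads (2 to 4), and at 24 h 3 became 0 (0 to 3). For the doxorubicin pairs DESeq2 gave 2 in place of 0. The cause of these shifts was not tested, except that fewer libraries leave fewer degrees of freedom. A lone library of a condition is assumed to vary like the others. The pair test by genotype could not be fitted without the conflicting titles, and the 2 h ad libitum comparison has no value without its only library. Depth limits Mt2, Hsd11b2 and the low Zbtb16 values, where a few reads decide a level.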
